A study of Mus musculus with 15 samples.

Results

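Mouse DNA holds many copies of the genes for the histones, the proteins around which chromatin is wound, and most of these copies sit in clusters named Hist1 to Hist4. The genes described here are the rows of the raw count tables whose symbol begins with Hist, the number of a cluster and an h. They were kept when they had 10 or more counts in at least 2 of the 15 libraries, a rule that 42 of 64 such rows met among 32657 rows in all. By the family named in the symbol, the 42 members were 5 of 6 H1 genes, 8 of 17 H2A genes, 12 of 18 H2B genes, 6 of 10 H3 genes and 11 of 13 H4 genes. *Hist1h4d*, an H4 gene of cluster 1, is set against the other 41 members throughout, because it had been singled out by its change in the ventral immunoprecipitates of the knockout mice. That change is therefore given as a description.

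The libraries came from the dentate gyrus (DG), the part of the hippocampus whose granule cells receive the main cortical input, of adult C57BL/6J mice aged 8 to 12 weeks. All mice carried the Drd3-Cre driver KI198 and the Rosa26-fsTRAP allele, which tags ribosomes in Cre-expressing cells. The knockout group (cKO) carried the Htr4-Floxed allele in addition, which loses exon 5 of *Htr4*, the gene of the serotonin receptor 5-HT4R, in those cells. The wild-type (WT) group did not carry it. In the DG this driver is active in granule cells and mossy cells but not in progenitors, immature neurons or interneurons. Translating ribosome affinity purification (TRAP) of the ventral DG (vDG) gave immunoprecipitates (IP) of RNA bound to the tagged ribosomes. RNA of the vDG and of the dorsal DG (dDG), purified from the cleared tissue extract, gave inputs. Each of the 3 WT groups (vDG IP, vDG input, dDG input) had 3 libraries and each of the 3 cKO groups had 2. According to the labels, an IP library pooled 3 mice and an input library 2 mice. The study's methods instead describe tissue of 1 male and 1 female mouse for each replicate, with the input taken from the extract before the IP, so the number of mice behind a library is uncertain. These libraries are the n of every SD below.

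Counts assigned to genes ranged from 19039295 to 30451430 per library, of which the 42 members took 0.0139% to 0.0289%. The share of reads set aside because they fell on more than 1 gene was 2.50% to 2.75% in IP libraries and 5.62% to 8.60% in inputs. *Htr4* had a level of 13.6 to 15.9 CPM, that is, counts scaled to library size, in WT vDG IP and 26.9 to 30.2 in cKO vDG IP. Its whole-gene counts do not resolve exon 5, so they do not check the deletion. *Trhr*, a marker of the ventral DG, was at 14.5 to 31.3 CPM in vDG libraries and at 0.119 to 0.719 in dDG libraries. *Lct*, a marker of the dorsal DG, was less cleanly divided. It was at 128 to 182 CPM in dDG inputs, 29.9 to 47.9 CPM in vDG inputs and 58.3 to 87.8 CPM in vDG IP. Although the labels also name the tissue of the inputs as whole cortex, the granule cell markers summed to 946 to 1539 CPM in them. In bulk samples such as these, fewer cells of a type and less RNA per cell cannot be told apart.

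Most histone protein is made while DNA is copied, from genes without introns whose messages end in a short stem-loop in place of a poly(A) tail. The stem-loop binding protein SLBP and the U7 particle direct the cut just behind this hairpin. Granule cells do not divide once mature, and some histone genes are known to give longer, polyadenylated messages in non-dividing cells. A set of replacement genes outside these clusters (such as *H2afz* and *H3f3b*) supplies histones without DNA replication. Of the 42 members, 32 lie on chromosome 13, 8 on chromosome 3, and *Hist3h2ba* and *Hist4h4* lie on chromosomes 11 and 6. In the GENCODE annotation of GRCm38, 40 members had a single exon.

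The H4 genes encode the same protein with different codons. Reads can be assigned to 1 copy where these codons, or bases outside the coding part, differ from those of the relatives. The first 60 coding bases of 5 H4 members are shown, with capitals where a base differs from *Hist1h4d* (GRCm38, coding strand).
*Hist1h4d*, chr13:23581602-23581661, plus strand: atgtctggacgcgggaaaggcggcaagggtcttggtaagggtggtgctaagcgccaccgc
*Hist1h4k*, chr13:21750446-21750505, minus strand: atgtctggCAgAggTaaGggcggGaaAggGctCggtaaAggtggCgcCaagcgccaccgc
*Hist1h4c*, chr13:23698390-23698449, minus strand: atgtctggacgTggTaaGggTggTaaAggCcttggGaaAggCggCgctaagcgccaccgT
*Hist2h4*, chr3:96263245-96263304, minus strand: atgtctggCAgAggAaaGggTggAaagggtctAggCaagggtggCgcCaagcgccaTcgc
*Hist4h4*, chr6:136804320-136804379, minus strand: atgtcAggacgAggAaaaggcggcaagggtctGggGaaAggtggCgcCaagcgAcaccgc
Over all 312 coding bases, identity with *Hist1h4d* was 94.2% for *Hist1h4j*, 93.9% for *Hist1h4k*, 92.6% for *Hist1h4c*, 89.7% for *Hist2h4* and 87.2% for *Hist4h4*. All 11 H4 members translated to the same protein of 103 codons, the start codon included.

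*Hist1h4d* (ENSMUSG00000061482) is annotated as a single exon at chr13:23581598-23582735 on the plus strand. Its 1138 bases run 770 bases past the stem-loop in GENCODE. The RefSeq model of the same gene (H4c4) has 402 bases and ends 4 bases past it. The stem-loops of 6 members whose annotated transcripts run past it are shown, since histone messages are cut just behind this hairpin, with the paired stem in capitals.
*Hist1h4d*, chr13:23581950-23581965, plus strand: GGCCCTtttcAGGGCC
*Hist1h4c*, chr13:23698089-23698104, minus strand: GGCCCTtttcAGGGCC
*Hist2h4*, chr3:96262939-96262954, minus strand: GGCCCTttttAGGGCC
*Hist1h4j*, chr13:21735437-21735452, plus strand: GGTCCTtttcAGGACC
*Hist1h1e*, chr13:23621782-23621797, minus strand: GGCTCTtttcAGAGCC
*Hist3h2ba*, chr11:58949349-58949364, plus strand: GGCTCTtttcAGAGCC
*Hist1h4d* and *Hist1h4c* share the same 16 bases, which also occur in *Hist4h4*, whose annotated transcript runs 2445 bases past them, and in *Hist1h4f*, *Hist1h4h* and *Hist1h4n*, whose transcripts end within 100 bases. The stem of *Hist1h4j* differs, and *Hist1h1e* and *Hist3h2ba* share another form. No match to the consensus histone 3′ stem-loop, searched after the coding part on the transcript strand, was found in the annotated transcripts of *Hist2h2be* or *Hist1h2bc*. The annotated transcript of *Hist1h4k* stops at the end of the coding part, so none could be found there.

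**Figure D1:**
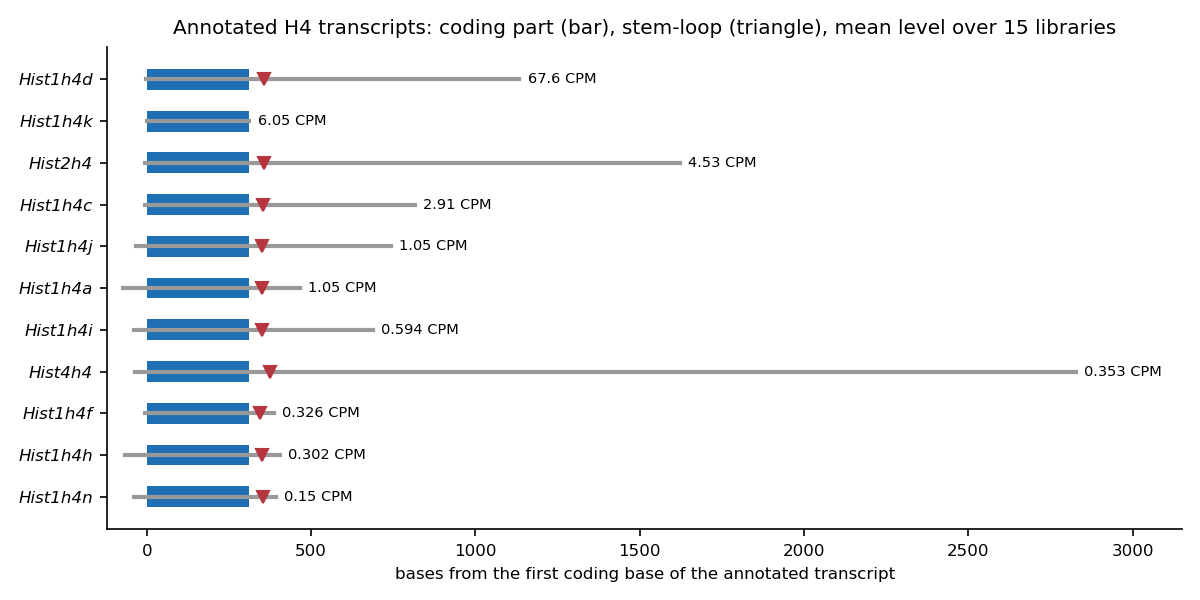
The annotated GENCODE transcripts of the 11 H4 members, drawn to scale in bases from the first coding base, with the coding part as a bar, the stem-loop as a triangle and the mean level over 15 libraries in CPM beside each. *Hist1h4d* (67.6 CPM), *Hist2h4* (4.53 CPM) and *Hist1h4c* (2.91 CPM) continue well past the stem-loop, whereas the annotated *Hist1h4k* (6.05 CPM) stops at the end of the coding part.

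A GENCODE transcript that ran 100 bases or more past the stem-loop was annotated for 21 of the 64 rows and for 17 members. These 17 members had a median level of 2.27 CPM (1.94 CPM per kb of transcript) and included 5 of the 8 members with the most counts. The 12 members whose transcript ended within 100 bases of the stem-loop had a median of 0.323 CPM (0.755 CPM per kb) and included 0 of these 8. The 13 members without a match had a median of 0.961 CPM (2.13 CPM per kb) and included 3 of them. The search began after the coding part. Some of the 13, such as *Hist1h4k* and *Hist1h2ak*, have transcripts annotated to stop there, so no match was possible and a missing stem-loop cannot be read from them. The libraries were primed and amplified from small amounts of RNA, and the annotation used for counting is not given in the sources used here, so these medians describe the annotation and the counts together.

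Of the 42 members, 38 had a promoter in the RefSeq table of GRCm38.p6. In the 250 bases before the start, on either strand, TATAAA was found in 20 of 38 (52.6%), against 12.4% of 32851 promoters in the table. CCAAT was found in 30 of 38 (78.9%, against 33.9%), in all 5 H1, all 8 H2A and all 10 H2B promoters but in 3 of 10 H4 promoters. The octamer ATTTGCAT, known from H2B promoters, was found in 7 of 38 (18.4%, against 1.60%), and 4 of these 7 were H2B genes. TGACGTCA, the full cyclic AMP response element, was found in 3 of 38 (7.89%, against 1.55%). None of these motifs contains another, and a match describes letters only. The 150 bases before the start of *Hist1h4d* and *Hist1h4c*, the pair of H4 genes that were called higher in IP than in input in both genotypes, are shown with CCAAT (or its reverse complement) and TATAAA in capitals.
*Hist1h4d*, chr13:23581418-23581567, plus strand: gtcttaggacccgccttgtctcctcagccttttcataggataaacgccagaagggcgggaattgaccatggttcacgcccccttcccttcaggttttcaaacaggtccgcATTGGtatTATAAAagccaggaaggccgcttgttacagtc
*Hist1h4c*, chr13:23698459-23698608, minus strand: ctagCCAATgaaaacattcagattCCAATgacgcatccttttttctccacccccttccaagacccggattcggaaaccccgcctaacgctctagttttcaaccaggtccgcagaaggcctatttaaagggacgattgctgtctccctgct
In *Hist1h4d*, TATAAA began 32 bases before the start and CCAAT lay on the minus strand from 40 bases before it. In *Hist1h4c*, CCAAT began 126 and 146 bases before the start.

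*Hist1h4d* had the highest level per length of all 42 members. Its mean over the 15 libraries was 59.4 CPM per kb of annotated transcript, 3.06 times that of *Hist1h4k* (19.4 CPM per kb), the next member, and *Hist3h2ba* followed at 17.0 CPM per kb. *Hist1h4k* and *Hist3h2ba* were close to each other and changed order between groups. Then came the linker histone gene *Hist1h1e* (12.2), the H2B genes *Hist1h2bc* (10.3) and *Hist2h2be* (8.57), the H2A gene *Hist1h2ak* (5.13), *Hist1h2be* (4.60) and *Hist1h1c* (3.69). Apart from *Hist1h2ak* these are the 8 members with the most counts, which took 82.1% of the summed mean CPM of the 42 members. At the low end, 20 members had a mean under 1 CPM. The members that just met the count rule were *Hist1h3b*, *Hist1h2bj* and *Hist1h4n*, with 10 or more counts in 2 libraries and at most 13. The rows that just failed it were *Hist1h2bh*, *Hist1h2bp*, *Hist1h3a*, *Hist1h4m* and *Hist3h2bb-ps*, whose highest counts were 15, 12, 11, 10 and 10. In every library 21 members had 10 or more counts. *Hist1h2ai*, *Hist1h3f* and *Hist1h4n* met the rule through IP libraries alone, and *Hist3h2a* had 0 counts in all 15 libraries.

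The precision of these levels depends on how far a gene differs from its relatives. Of all 75-base windows of its transcript, *Hist1h4d* shared 3.67% with another annotated transcript. *Hist2h2be* and *Hist2h4* shared 0%, *Hist3h2ba* 13.9%, *Hist1h4c* 16.9%, *Hist1h2bc* 27.1% and *Hist1h4k* 68.1%. In all, 25 members shared under 50% of their windows and 4 shared every window, so that levels of the latter are uncertain. A further limit is overlap with other genes, which was annotated for 13 members. In GENCODE, *Hist1h1e* and *Hist1h2be* overlap each other on the same strand. Whether the annotation used for counting holds this overlap, in which case reads there went uncounted, is not given in the sources used here. Without strand information, reads of a gene and of an antisense partner cannot be told apart.

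The level of *Hist1h4d* was 74.6, 86.8 and 59.3 CPM in the 3 WT vDG IP libraries and 156 and 147 CPM in the cKO vDG IP libraries. In vDG input it was 32.5, 33.9 and 54.6 CPM in WT and 75.9 and 39.5 CPM in cKO. The dDG inputs held 50.6, 43.8 and 68.5 CPM in WT and 61.4 and 30.9 CPM in cKO. Both cKO IP libraries therefore lay above every other library, all 3 WT IP libraries lay above the WT vDG inputs, and the 4 input groups overlapped one another. The group means in descending order were 151 ± 6.37 (SD, n = 2) in cKO vDG IP, 73.6 ± 13.8 (n = 3) in WT vDG IP, 57.7 ± 25.7 (n = 2) in cKO vDG input, 54.3 ± 12.8 (n = 3) in WT dDG input, 46.2 ± 21.5 (n = 2) in cKO dDG input and 40.3 ± 12.4 CPM (n = 3) in WT vDG input. Neighbours from the second of these means downward differed by less than their spread. The cKO inputs spread the most, with replicate 1 the higher library in both regions.

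**Figure D2:**
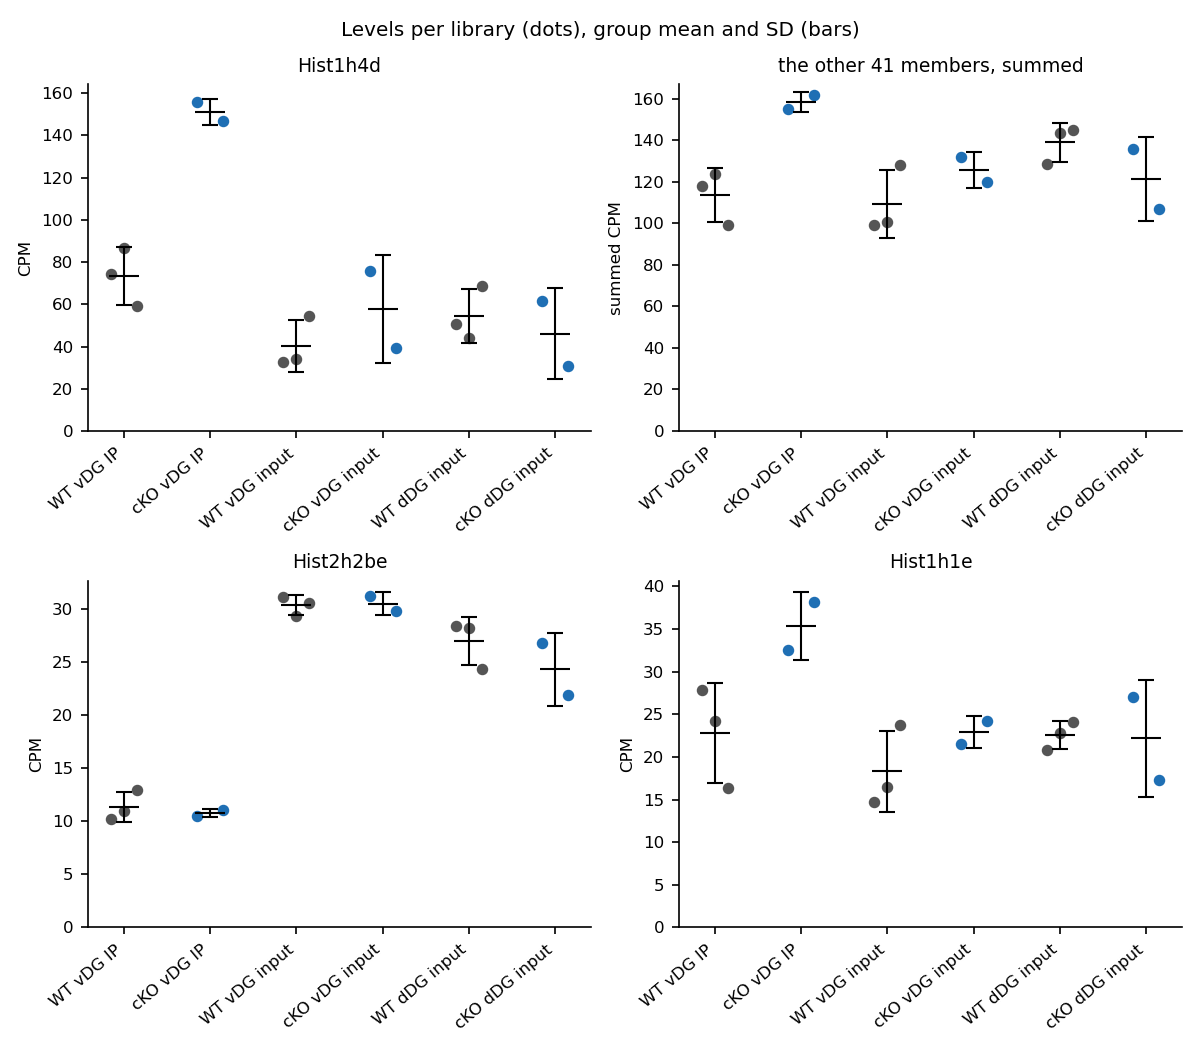
Levels of *Hist1h4d*, of the other 41 members summed, of *Hist2h2be* and of *Hist1h1e* in CPM (vertical axes, from 0) for each library of the 6 groups (dots, WT grey and cKO blue), with the group mean and SD as bars. *Hist1h4d* stands at 156 and 147 CPM in the cKO vDG IP libraries against 59.3 to 86.8 CPM in WT vDG IP, while *Hist2h2be* stays between 10.2 and 12.9 CPM in all 5 IP libraries and between 21.8 and 31.2 CPM in the 10 inputs.

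Set against the family as a whole, *Hist1h4d* took 38.8%, 41.2% and 37.5% of the members' counts in WT vDG IP and 50.1% and 47.5% in cKO vDG IP. In WT vDG input it took 24.7%, 25.2% and 29.9%, and in cKO vDG input 36.5% and 24.8%. The IP libraries of both genotypes thus lay above all inputs. Of the counts of the H4 family alone, *Hist1h4d* held 81.1% ± 0.414 (SD, n = 3) in WT vDG IP, 85.0% ± 2.27 (n = 2) in cKO vDG IP and 74.7% to 76.7% on average in the 4 input groups. *Hist2h2be*, the gene of an H2B variant known from olfactory neurons, showed the opposite composition, with 6.21% ± 1.69 in WT vDG IP, 3.48% ± 0.144 in cKO vDG IP and 20.7% ± 3.58 in WT vDG input. These are shares of counts, which longer transcripts raise, and not levels per length. Comparing 3 with 2 libraries, an exact two-sided permutation test of a share or a sum cannot give a p under 0.2, so none is given.

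**Figure D3:**
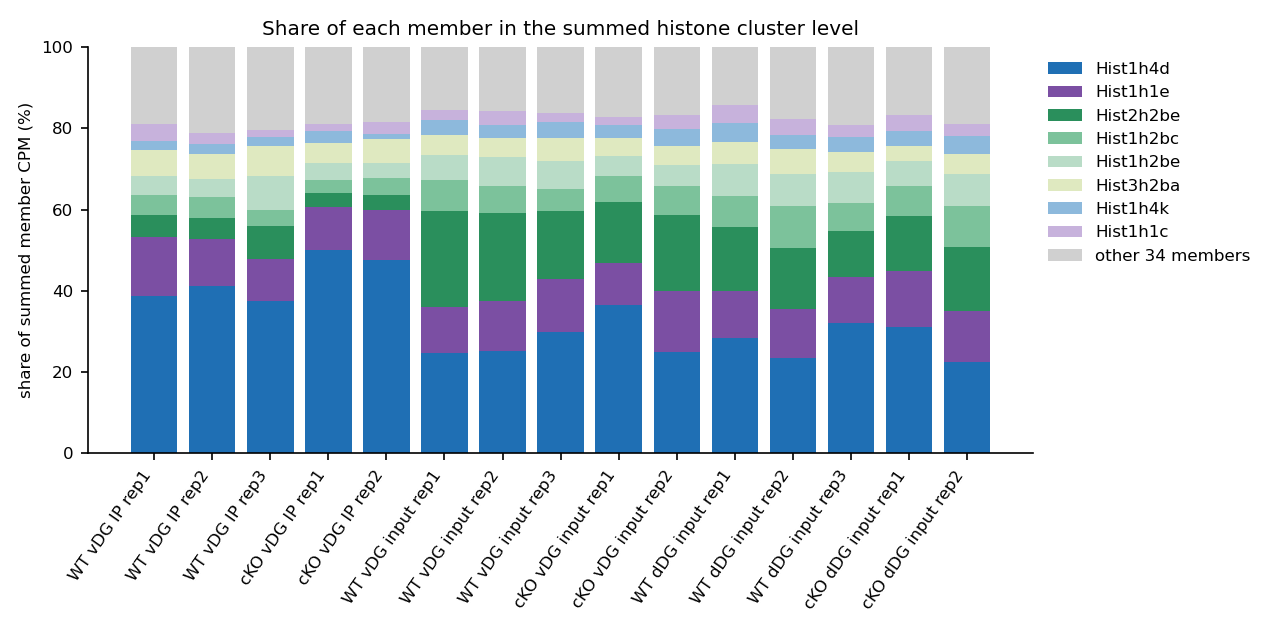
Stacked bars of the share (%) of the summed CPM of the 42 members taken by each of the 8 members with the most counts and by the other 34, in each of the 15 libraries. *Hist1h4d* takes 37.5% to 50.1% in the IP libraries and 22.4% to 36.5% in the inputs, and *Hist2h2be* is the band that narrows most in the IP libraries.

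In the vDG IP, which asks what the loss of *Htr4* changed in the ribosome-bound RNA of the tagged cells, 1 member, *Hist1h4d*, passed the test between cKO and WT. It was higher in cKO by 1.05 ± 0.16 on the log2 scale (SE), and it was the member with the smallest SE. Of 37 members tested in all, 30 had a positive log2 fold change and the median was 0.49, where all 14300 tested features had a median of 0.00 and 49.8% positive. Without *Hist1h4d* the members' median was 0.48. At an FDR-adjusted p under 0.1 in edgeR, 1 member was called higher (*Hist1h4d*) and 0 lower. The background was 0.0699% of features called higher and 0.35% called lower, and since *Hist1h4d* was chosen on this contrast nothing is read from its call. That call was also lost without WT IP replicate 2 (adjusted p = 0.130 in edgeR) and without either cKO IP library (adjusted p = 0.908 without replicate 1 and 0.148 without replicate 2), its log2 fold change staying between 0.91 and 1.19.

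None of the other 36 members was called in this comparison by edgeR, with 8 of them at an unadjusted p under 0.05, all higher in cKO, and 1 of them (*Hist1h1e*) called by DESeq2. Across all features 11.7% had such a p. The 2 groups did not overlap for 15 of all 37 members, *Hist1h4d* among them, and all 15 were higher in cKO. Of all features 14% were so separated upward and 16.8% downward. Of 37 members, 5 had a higher log2 fold change than *Hist1h4d*, namely *Hist1h2bn* (1.77 ± 0.55), *Hist1h4h* (1.70 ± 0.83), *Hist1h2bg* (1.36 ± 0.48), *Hist1h2ac* (1.22 ± 0.80) and *Hist1h4f* (1.11 ± 0.70). Their errors are large because their counts are few: *Hist1h2bn* had 8, 11 and 17 counts in WT and 38 and 34 in cKO, and *Hist1h4h* had 4, 9 and 1 in WT and 15 and 12 in cKO, so that it passed the filter on low counts through cKO alone. *Hist1h4d* exceeded the median of the other members by 0.57. The 5 members that were not tested, for low counts, were *Hist1h2ab*, *Hist1h2bj*, *Hist1h3b*, *Hist2h2aa2* and *Hist4h4*.

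Among the other H4 genes, *Hist2h4* of cluster 2 had 5.04, 4.94 and 3.48 CPM in WT vDG IP and 9.07 and 8.77 CPM in cKO vDG IP. The groups did not overlap, and its log2 fold change was 1.0 ± 0.25 with an edgeR adjusted p of 0.143. Without WT IP replicate 1 that adjusted p was 0.0941. *Hist1h4c* had 3.72, 4.34 and 3.28 CPM in WT and 6.37 and 5.21 CPM in cKO (0.62 ± 0.27, edgeR adjusted p = 0.396), again without overlap. *Hist1h4n* (1.01), *Hist1h4k* (0.57) and *Hist1h4j* (0.44) were positive without being called. *Hist1h4a* (-0.77 ± 0.49) and *Hist1h4i* (-0.47) were the negative H4 members, and *Hist1h4a*, with 49, 53 and 30 counts in WT and 16 and 30 in cKO, was the lowest of all members. The median of the 10 tested H4 members was 0.81. These include *Hist1h4d*, chosen on this contrast, and *Hist1h4h*, which passed the filter on low counts through cKO alone.

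The linker histone genes, whose product binds the DNA between nucleosomes, were positive in 5 of 5 cases in the vDG IP with a median of 0.64. *Hist1h1e* had 27.9, 24.2 and 16.3 CPM in WT and 32.5 and 38.2 CPM in cKO (0.64 ± 0.20, edgeR adjusted p = 0.261). Its WT libraries all lay below the cKO libraries, with replicate 3 the lowest. Without WT IP replicate 1, *Hist1h1e* passed the threshold (0.81, adjusted p = 0.0706 in edgeR), and the members called then numbered 3. Of the H2B genes 10 of 11 were positive (median 0.61), of the H2A genes 4 of 6 (median 0.23) and of the H3 genes 3 of 5 (median 0.18). The exception among H2B genes was *Hist2h2be*, with 10.2, 10.9 and 12.9 CPM in WT and 10.5 and 11.1 CPM in cKO (-0.06 ± 0.20).

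In the vDG input, where RNA from the cleared extract of the whole tissue was compared, 28 of 33 tested members were positive in cKO against WT. The median was 0.32, against 0.01 over all 15786 features, of which 51.4% were positive. No member was called by edgeR at an adjusted p under 0.05 or by DESeq2, where edgeR called 0.108% of features higher and 2.33% lower. At an unadjusted p under 0.05 there were 2, both higher, against 14.8% of features. They were *Hist1h1d* (0.95 ± 0.35, edgeR adjusted p = 0.181), a linker histone gene, and *Hist1h4d* (0.51 ± 0.21, edgeR adjusted p = 0.233). *Hist1h4d* ranked 12th of 33 and exceeded the median of the others by 0.22. Its value rested on cKO input replicate 1, the library with 75.9 CPM: without it the log2 fold change was -0.02, and without replicate 2 it was 0.90. Over members, 6 were separated upward and 1 downward, against 15% and 17.6% of features. The extremes were *Hist1h4a* (-1.07) and *Hist1h4h* (0.97).

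In the dDG input no member was called by edgeR or DESeq2, and of 31 tested members 8 had a positive log2 fold change, with a median of -0.18, where all features had a median of -0.02 and 46.4% positive. All 7 tested H4 members were negative. Among all features edgeR called 0.0065% higher and 0.026% lower. Of the members, 2 had an unadjusted p under 0.05, both lower in cKO, against 12.2% of features. They were the H2B genes *Hist3h2ba* (-0.56 ± 0.18, edgeR adjusted p = 0.219) and *Hist1h2be* (-0.42 ± 0.16, edgeR adjusted p = 0.301). *Hist3h2ba* had 9.53, 11.5 and 10.3 CPM in WT and 7.43 and 6.78 CPM in cKO, without overlap. *Hist1h4d* was at -0.24 ± 0.23 and ranked 19th of 31. Leaving out cKO dDG replicate 2 turned it to 0.18 and leaving out replicate 1 gave -0.82. Upward, 1 member was separated and downward 5, against 14.2% and 15.2% of features. The lowest and highest members were *Hist1h4a* (-0.85) and *Hist1h2ab* (0.91).

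**Figure D4:**
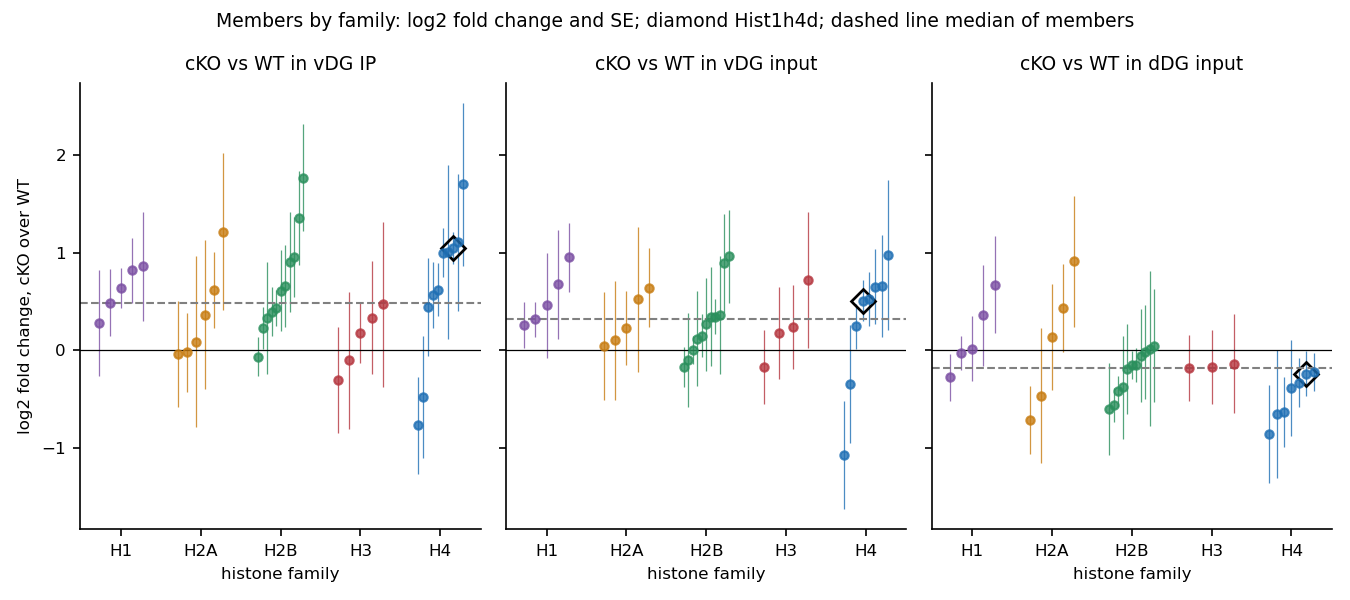
Log2 fold change of cKO over WT (vertical axis) for each tested member, grouped by histone family on the horizontal axis, in panels for vDG IP, for vDG input and for dDG input; lines are SE, the open diamond is *Hist1h4d* and the dashed line the members' median. The medians fall from 0.49 in vDG IP to 0.32 in vDG input and -0.18 in dDG input, and *Hist1h4a* is the lowest member in each panel.

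Whether the cKO change of a member differed between IP and input was tested as an interaction in the vDG libraries. Of 39 members tested, 26 were positive and the median was 0.28, with 52.9% of all features positive. No member was called by edgeR or DESeq2 and none had an unadjusted p under 0.05. Over all 16093 features, edgeR called 0%. For *Hist1h4d* the difference, which includes the contrast it was chosen on, was 0.55 ± 0.34. The extremes were *Hist1h2ai* (1.61) and *Hist1h3i* (-0.81), both with a mean under 0.4 CPM. The interaction with region, which compares the cKO change in vDG input with that in dDG input, was positive for 31 of 37 members with a median of 0.40, and 49.2% of all 16306 features were positive. Here too edgeR called 0% of features, and no member was called by edgeR or DESeq2. An unadjusted p under 0.05 was found for 3 members, all larger in vDG, against 12.3% of features: *Hist3h2ba* (0.70 ± 0.30, edgeR adjusted p = 0.357), *Hist1h4c* (1.27 ± 0.56, 0.360) and *Hist2h4* (0.85 ± 0.37, 0.362). *Hist1h4d* was at 0.74 ± 0.39 (edgeR adjusted p = 0.454). The highest and lowest values belonged to *Hist4h4* (1.32) and *Hist1h2ab* (-0.40). *Hist4h4* had 22 and 2 counts in the cKO vDG inputs and 4, 5 and 5 in the WT ones, most of them in 1 library.

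Markers of the tagged cells and of other cells moved with genotype in these libraries. In vDG input the granule cell gene *Dsp* was called lower in cKO, with 44.4 to 87.0 CPM in WT and 31.4 to 43.7 CPM in cKO (-0.94 ± 0.21, edgeR adjusted p = 0.0156). DESeq2 did not call it, and the 5 granule cell markers had a median of -0.01. *Trhr* was at -0.50 ± 0.19 there (edgeR adjusted p = 0.179). The astrocyte genes *Aqp4* and *Slc1a3* were called lower by edgeR and DESeq2, and the 4 astrocyte markers summed to 349 to 442 CPM in WT and 252 to 291 CPM in cKO. The 3 microglia markers summed to 16.8 to 28.3 CPM in WT and 11.4 to 16.2 CPM in cKO. DESeq2 also called *Aldh1l1*, *Pdgfra* and *P2ry12* lower in vDG input and *Slc1a3* lower in vDG IP and dDG input. In vDG IP the interneuron gene *Gad2* was called lower by both, and the 5 interneuron markers summed to 166 to 189 CPM in WT and 115 to 130 CPM in cKO. The 6 markers of progenitors and immature neurons summed to 85.0 to 136 CPM in WT IP and 111 to 155 CPM in cKO IP. Of these, *Eomes* was at 0 to 0.118 CPM in WT IP and at 0 in both cKO IP libraries, and the 4 that were tested had positive log2 fold changes without a call. The part of these cells in the members' changes was not tested.

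The comparison of IP with input sets the ribosome-bound RNA of the tagged cells against extract RNA of all cells. Binding to ribosomes and RNA of untagged cells cannot be told apart in it. Calls needed an adjusted p under 0.05 together with an IP level at least 25% above input (higher) or under 0.5 of it (lower). In WT, 25 of 31 tested members had a positive log2 fold change (median 0.42, all features 0.00), with 5 called higher and 1 lower. Among all features 7.72% were called higher and 11.4% lower. In cKO, 29 of 37 were positive (median 0.79, all features -0.03), with 8 called higher and 1 lower, against 11.4% and 10.7% of features. In cKO the tally of 37 includes members that were not tested in WT, such as *Hist1h3f* (1.83, the highest), which had 11 and 11 counts in IP and 2 and 5 in input and passed the filter on low counts through IP alone. Of the 31 members tested in both genotypes, 24 were positive in both and 6 negative in both. The 2 comparisons share no library, but the IP libraries of both genotypes also enter the contrast on which *Hist1h4d* was chosen.

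*Hist1h4d* was enriched by 0.82 ± 0.20 in WT (edgeR adjusted p = 0.00737) and by 1.34 ± 0.21 in cKO (edgeR adjusted p = 0.000753). It ranked 7th of 31 and 6th of 37 and exceeded the median of the others by 0.40 and 0.63. *Hist1h4c* was enriched by 1.24 ± 0.34 in WT (0.0172) and 1.20 ± 0.32 in cKO (0.0151). It had 1.49, 0.824 and 2.33 CPM in WT vDG input against 3.28 to 4.34 CPM in WT IP, so the groups did not overlap. *Hist3h2ba*, with 6.44, 6.25 and 10.3 CPM in WT input against 12.5, 13.1 and 11.8 in WT IP, was enriched by 0.65 ± 0.20 (0.0322) and in cKO by 0.92 ± 0.20 (0.00534). The linker histone gene *Hist1h1d* (1.13 ± 0.34 and 0.99 ± 0.34) and the H3 gene *Hist1h3e* (0.91 ± 0.29 and 1.26 ± 0.38) were called in both genotypes as well. In cKO, *Hist1h1e* (0.57 ± 0.15, edgeR adjusted p = 0.0121), *Hist2h4* (1.02 ± 0.29, 0.0208) and *Hist1h2bb* (1.55 ± 0.47, 0.0270) were called in addition. In WT these were at 0.27, 0.57 and 0.51 without a call, and no difference between the genotypes was called for any member.

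*Hist2h2be* was the member called lower, and it was so in both genotypes. The 3 WT vDG IP libraries held 10.2, 10.9 and 12.9 CPM and the WT inputs 31.1, 29.3 and 30.6 CPM. In cKO the IP libraries held 10.5 and 11.1 CPM and the inputs 31.2 and 29.7 CPM. The log2 fold change was -1.47 ± 0.15 in WT (edgeR adjusted p = 5.36e-06) and -1.55 ± 0.15 in cKO (2.01e-05). This call was kept in all 14 alternative settings in WT and all 12 in cKO, and the gene shared 0% of its windows with other transcripts. Of the other H2B genes, *Hist1h2bc*, with 9.45, 10.9 and 6.33 CPM in WT IP and 9.97, 8.79 and 10.0 CPM in WT input, was at -0.16 in WT and -0.12 in cKO without a call.

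**Figure D5:**
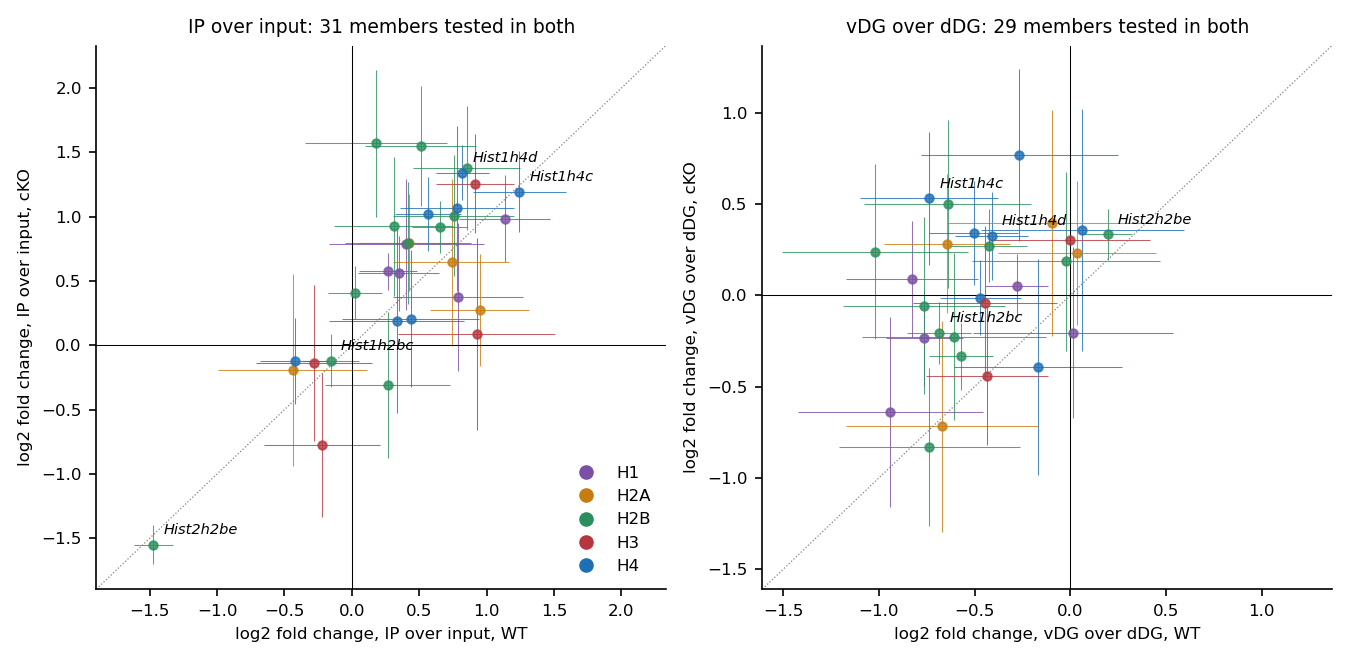
Log2 fold change in WT (horizontal axis) against cKO (vertical axis) for each member tested in both, coloured by histone family, with SE as lines: IP over input for 31 members (left) and vDG over dDG for 29 members (right). *Hist2h2be* lies alone near -1.5 on both axes at the left, 24 members lie above 0 on both axes there, and at the right 12 members lie below 0 on both axes and 13 are below 0 in WT but above 0 in cKO.

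Single libraries weighed on these counts. In WT, 1 member (*Hist2h2be*) was called without IP replicate 2, which also removed the call of *Hist1h4d* (0.69, edgeR adjusted p = 0.0507), and 2 members were called without input replicate 1 or without input replicate 2. In cKO, 5 were called without input replicate 1 and 3 without input replicate 2. Scaled by library size alone, the median of all features was -0.13 in WT and -0.20 in cKO, and 20.3% and 27.1% of all calls were higher in IP, where TMM gave 40.4% and 51.4%. The members' medians were then 0.29 and 0.62, and *Hist1h3e* and *Hist3h2ba* in WT and *Hist1h1d*, *Hist1h1e* and *Hist1h3e* in cKO were no longer called, while *Hist1h4d*, *Hist1h4c* and *Hist2h2be* still were in both. *Hist1h1d* in cKO was not called by DESeq2. Markers of untagged cells differed strongly between the fractions. The 4 astrocyte markers, all called lower in IP in both genotypes by edgeR, summed to 42.4 to 92.7 CPM in IP and 252 to 442 CPM in vDG input. Likewise all 3 microglia markers were called lower in both genotypes and summed to 2.37 to 4.11 CPM in IP and 11.4 to 28.3 CPM in vDG input. The share of reads on more than 1 gene, given above, also differed between the fractions. The part of either in the members' values was not tested. Among members that shared under 50% of their windows with other transcripts, 23 of 25 were positive in cKO (median 0.80), and of those that shared more 6 of 12 were (median -0.02). In WT these were 18 of 20 (0.47) and 7 of 11 (0.26).

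Between the regions in WT mice, 3 members were called lower in vDG than in dDG input. Of 29 tested members 25 had a negative log2 fold change, with a median of -0.47, where all features had a median of -0.01 and 49.1% positive. In all, edgeR called 3 lower and 0 higher, against 6.09% and 9.26% of features, and 8 had an unadjusted p under 0.05, all lower, where 27.2% of all features had such a p. The 3 were the H2B genes *Hist1h2bc* (-0.69 ± 0.17, edgeR adjusted p = 0.00866) and *Hist1h2be* (-0.57 ± 0.17, 0.0287) and the linker histone gene *Hist1h1c* (-0.76 ± 0.20, 0.0148). *Hist1h2bc* had 9.97, 8.79 and 10.0 CPM in vDG and 13.6, 19.2 and 14.4 CPM in dDG. *Hist1h1c* had 3.39, 4.77 and 4.16 CPM in vDG and 7.78, 7.03 and 6.45 CPM in dDG. Neither overlapped between regions. *Hist1h4d* was at -0.41 ± 0.19 (edgeR adjusted p = 0.168), ranked 11th of 29 and exceeded the median of the others by 0.08. Without vDG replicate 3, the WT vDG input with its highest level, it was called lower (-0.69, adjusted p = 0.0203 in edgeR) and the members called numbered 6. Without vDG replicate 1 or without dDG replicate 2, 1 member was called, and *Hist1h1c* was not called in 1 fit of all 15 libraries. *Hist2h2be* was the highest member at 0.19 and *Hist1h2bl* the lowest at -1.02.

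In cKO mice the members did not share this direction, with 18 of 33 positive and a median of 0.09. No member was called by edgeR or DESeq2, where edgeR called 8.56% of features higher and 8.47% lower, and 1 had an unadjusted p under 0.05, against 30.3% of features. Of the calls over all features 50.3% were higher in vDG, and 65.3% with library size alone as scaling. The member was *Hist2h2be* (0.33 ± 0.14, edgeR adjusted p = 0.106). *Hist1h4d* was at 0.33 ± 0.24 (0.391) and ranked 9th of 33. It was called higher without cKO vDG replicate 2 (0.70, adjusted p = 9.83e-05 in edgeR) and without cKO dDG replicate 1 (0.90, 1.08e-05), and it turned negative without the other replicate of either group (-0.23 and -0.08). *Hist1h2bb* (-0.83) and *Hist1h4j* (0.77) were the extremes. Of 29 members tested in both genotypes, 12 were negative in both, 3 positive in both and 13 negative in WT but positive in cKO. As given above, the genotype difference was not called for any member. The granule cell markers also differed between regions, at 946 to 1095 CPM in WT vDG and 1527 to 1539 CPM in WT dDG. The 3 mossy cell markers went the other way, at 181 to 214 CPM in WT vDG and 43.5 to 55.9 CPM in WT dDG. So did the 5 interneuron markers, at 431 to 495 CPM in WT vDG and 283 to 348 CPM in WT dDG. The part of these cells in the members' values was not tested.

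Genes that make and process histone messages were read from a list of 20 for histone gene transcription and 3′ end processing, of which 18 were in the files. In cKO against WT, edgeR called 0 of them in the vDG IP, the vDG input or the dDG input (medians -0.07, -0.05 and 0.09), with 2, 4 and 5 at an unadjusted p under 0.05, where 11.7%, 14.8% and 12.2% of all features had such a p. DESeq2 called *Upf1* lower in vDG IP and *Cpsf3* lower in vDG input. *Fip1l1*, one of the most abundant of the list, was at -0.11 ± 0.13 in vDG IP. *Slbp*, which binds the stem-loops shown above, had 16.5 to 20.7 CPM in WT vDG IP and 15.3 to 16.5 CPM in cKO vDG IP. Between regions, however, *Slbp* was higher in vDG than in dDG input, by 0.60 ± 0.16 in WT (edgeR adjusted p = 0.0179) and 0.87 ± 0.18 in cKO (0.00177). *Lsm11*, a protein of the U7 particle, was at 39.5 to 47.0 CPM in WT vDG input and 8.99 to 16.8 CPM in WT dDG input (1.78 ± 0.18, edgeR adjusted p = 3.02e-06). In cKO it was higher in vDG by 1.12 ± 0.15 (1.54e-05). *Eri1*, an exonuclease that trims the histone stem-loop, was lower in vDG in WT (-0.38 ± 0.12, edgeR adjusted p = 0.0395) and in cKO (-0.41 ± 0.12, 0.0204). In WT, *Cpsf1* was also higher and *Snrpb* lower in vDG, and in cKO *Casp8ap2* and *Cpsf2* were lower. Between regions edgeR called 9.26% of all features higher and 6.09% lower in vDG in WT, and 8.56% and 8.47% in cKO. *Cpsf2*, a subunit of the complex that cuts histone messages, was enriched in IP by 0.54 ± 0.13 in WT (0.00913) and 0.95 ± 0.14 in cKO (0.000329), as were *Cpsf1* and *Snrpb* in both, *Upf1* in WT and *Cpsf3* in cKO. Such calls were made for 7.72% of all features in WT and 11.4% in cKO.

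For the 11 replication-independent histone genes edgeR made 0 calls in cKO against WT in the 3 comparisons, with 3, 2 and 2 at an unadjusted p under 0.05 (the shares of all features are those just given), and DESeq2 called *H2afx* lower in dDG input. Of the 11 genes, 9 were positive in vDG IP (median 0.22), 10 in vDG input (0.25) and 4 in dDG input (-0.19). *H2afz*, the H2A.Z gene, was at 256 to 302 CPM in WT vDG IP and 311 to 337 CPM in cKO vDG IP (0.25 ± 0.13), and *H3f3b*, an H3.3 gene, at 104 to 155 and 179 to 192 CPM (0.47 ± 0.16). In IP against input, where 7.72% of all features were called higher in WT and 11.4% in cKO, 3 were called higher in WT (*H2afx*, *H2afz*, *H3f3a*) and 5 in cKO (these and *H1f0* and *H3f3b*). In vDG against dDG, where edgeR called 6.09% of all features lower in WT and 8.56% higher in cKO, *Cenpa* and *H3f3a* were lower in WT. *H2afx* was higher in cKO, and *H2afy2* was called higher in cKO by edgeR but not by DESeq2. Of 19 histone chaperone genes in the files, which hand histones to DNA, edgeR called *Atrx* with genotype, lower in cKO vDG input (-0.70 ± 0.14, adjusted p = 0.00706), and DESeq2 called *Ssrp1* there too. *Nap1l1*, the next most abundant chaperone gene, was at -0.20 ± 0.13 in vDG IP. Against 7.72% of all features in WT and 11.4% in cKO, 6 chaperone genes were called higher in IP than in input in WT (*Atrx*, *Cabin1*, *Rbbp4*, *Ssrp1*, *Supt16*, *Ubn1*) and 7 in cKO (these and *Rbbp7*). In cKO edgeR called 4 lower in vDG than dDG (*Anp32e*, *Atrx*, *Rbbp7*, *Supt16*), against 8.47% of all features, and DESeq2 called *Asf1a* lower in WT.

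Because most of these histone genes are used in S phase, 20 genes of DNA replication and proliferation were read beside them. None was called in cKO against WT by edgeR or DESeq2 in any of the 3 comparisons (medians -0.13, -0.06 and 0.12), and 15, 16 and 17 of the 20 could be tested. An unadjusted p under 0.05 was found for 5 in vDG IP and 4 in vDG input, all lower in cKO, and for 1 in dDG input, higher in cKO, where 11.7%, 14.8% and 12.2% of all features had such a p. *Pcna*, the sliding clamp of DNA polymerase, was at 0.24 ± 0.14 in vDG IP. *Cdk1* was at 0 to 0.160 CPM in WT vDG IP and at 0 in both cKO IP libraries. In IP against input, *Mcm6*, a subunit of the replicative helicase, was higher in WT (0.59 ± 0.14) and cKO (0.63 ± 0.17), with *Ccne1* higher in WT. *Cdk2* and *Top2a*, both under 0.4 CPM in cKO IP, were called lower in cKO by edgeR but not by DESeq2. For IP against input edgeR called 7.72% of all features higher in WT, and 11.4% higher and 10.7% lower in cKO. In vDG against dDG, *Mcm6* was lower in WT (-0.85 ± 0.14) and cKO (-1.04 ± 0.16). *Top2a* (-1.15) and *Cdt1* were also lower in WT, and *Mki67* was lower in cKO (-1.31) and, by DESeq2 alone, in WT. The share of all features that edgeR called lower in vDG was 6.09% in WT and 8.47% in cKO.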

How the data were processed

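The 15 libraries were amplified (NuGEN Ovation V2), made without strand information and sequenced as 75 bp paired ends. The authors aligned reads to mm10 with STAR 2.4.2a, removed duplicates with SAMtools 0.1.19-444 and counted per gene with HTSeq in union mode, which drops reads that align to several places or fall on several genes. The deposited values are these raw counts. Rows of unassigned reads were kept out of library sizes (11.3% to 18.7% of reads fell on no gene). A further 5 deposited tables of the authors' fold changes and p-values were not used.

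Counts were scaled to library size with TMM factors (CPM), and CPM per kb used GENCODE lengths. Each comparison was fitted on its own groups with edgeR 4.0.16 (filterByExpr, quasi-likelihood test, Benjamini-Hochberg over all features, R 4.3.3) at an adjusted p under 0.1 for cKO against WT in vDG IP and under 0.05 elsewhere. The SE is the log2 fold change over the square root of F. Scripts were tested on simulated data. The p-values measure the spread between these pooled libraries, which may be partly technical. Alternatives were DESeq2 1.42.0, other scalings, filters and thresholds, 1 fit of all libraries, a block on the replicate number and each library left out.

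The members, gene lists and tests were chosen with earlier results of these data known. Named with values were Hist1h4d, the H4 members, members called in any comparison, the 8 with the most counts, the extremes of each comparison, the rows at the edge of the count rule and, from the lists, genes called and the 2 most abundant. Hist1h2bg, Hist1h2ac, Hist1h2ak, Cdk1 and Eomes were named after their values were seen.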

Additional observations from a re-analysis of the deposited data

How the results depend on the processing

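Of 127 values of Hist1h4d under the alternatives, 113 kept their side of the threshold, 9 newly passed it and 5 no longer did. No call of a named member changed sign, but values of Hist1h4d that were not called did in some comparisons, as the ranges below show. The cause of the changes below was not tested. In cKO against WT in vDG IP, 2 members were called by DESeq2 and in 1 fit of all libraries, 3 without a count filter and 0 at an adjusted p under 0.05, where Hist1h4d (1.05) is no longer called. In vDG input 1 member, Hist1h4d (0.51), was called without a filter. In WT, Hist1h4d was lower in vDG than dDG without a filter (-0.40). Without a filter the region interaction of Hist1h4d (0.73) was called, as the 1 member.

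Leaving out each library in turn gave 0 to 3 members called in cKO against WT in vDG IP (Hist1h4d 0.91 to 1.19), 0 in vDG input (-0.02 to 0.90) and 0 in dDG input (-0.82 to 0.18). It gave 1 to 8 in IP against input of WT (0.69 to 1.11) and 3 to 10 in cKO (0.95 to 1.88), 1 to 6 in vDG against dDG of WT (-0.69 to -0.22) and 0 to 1 in cKO (-0.23 to 0.90). The interactions gave 0, with Hist1h4d at 0.16 to 1.08 for fraction and 0.19 to 1.31 for region. Where this left 1 library in a group, that library was assumed to vary like the others.

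With the replicate number as a block, 1 member was called in cKO against WT in vDG input (Hist1h4d 0.72, edgeR adjusted p = 0.0117) and 2 in vDG against dDG of cKO (Hist1h4d 0.34, edgeR adjusted p = 0.0139, and Hist2h2be 0.34). Hist1h4d was called lower in vDG than dDG of WT (-0.42, edgeR adjusted p = 0.0120). No other call of Hist1h4d or count by more than 1.5 times changed. The numbers were not shown to pair the samples of any comparison. Correlations of same-numbered deviations were 0.358, -0.0664 and -0.192 between WT IP and input, 0.313, -0.0399 and 0.208 between WT vDG and dDG inputs, 0.186 between cKO IP and input and 0.083 between cKO inputs. They were 0.122 to 0.235 between WT vDG IP and WT dDG input, which were not compared. The titles number the cKO dDG libraries 1 and 2 and were followed, but their deposited tables carry the numbers 2 and 3, by which only 1 number is shared with cKO vDG input and no block could be fitted there. With 3 pairs, not every sample correlated best with its own number. Depth limits the 20 members with a mean under 1 CPM, whose SE is large.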
